A study of Rattus norvegicus with 12 samples.

Results

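The NF-kB subunits and brakes described here are 10 genes of 43360 in the count table, chosen by symbol: 4 subunits (Nfkb1, Nfkb2, Rela and Relb), 3 genes of the inhibitor family (Nfkbia, Nfkbie and Bcl3) and 3 feedback regulators (Tnfaip3, Tnip1 and Birc3). Each of the 10 symbols matched 1 gene of the deposited normalized table, and all 10 passed the filter on low counts that left 14601 genes for testing. They were measured in NRK-49F, an established fibroblast line from normal rat kidney. The line carried either a plasmid for human HDAC1 with a Flag tag (an enzyme that strips acetyl marks off histones and other proteins) or the empty pcDNA3.1 vector. After transfection the cells spent 24 hours in medium with 0.5% serum, either with 2 ng/ml TGFB1, the cytokine best known for driving fibroblasts to lay down matrix, or without it (vehicle). The 4 groups were therefore HDAC1 with TGFB1, empty vector with TGFB1, HDAC1 in vehicle and empty vector in vehicle, with 3 poly(A) RNA libraries each. The labels do not state what share of cells took up a plasmid, whether expression was transient or stable, or whether replicates came from different cultures, so every p-value rests on library-to-library spread alone. Each value is an average over all cells of a library, in which fewer cells of a kind and less RNA per cell cannot be told apart.

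NF-kB is a family of transcription factors that carry signals from cytokine and pathogen receptors to the genes of inflammation and cell survival. In resting cells inhibitor proteins of the IkB family hold the subunits in the cytoplasm until a kinase complex marks them for destruction, and several genes that NF-kB then switches on encode its own brakes, among them IkB proteins and ubiquitin-editing enzymes. In kidney fibroblasts the pathway is known for its part in the inflammatory side of injury and scarring.

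The libraries held 18397093 to 36652084 counts, and the 10 genes were covered by 93 (Bcl3) to 6869 (Nfkb2) counts in a single library. Levels are given as CPM (counts scaled to a common library size) after TMM correction, and a change is called where the adjusted p of edgeR's quasi-likelihood test, corrected over all 14601 genes, was under 0.05. The plasmid was visible in every HDAC1 library. Hdac1 averaged 464 CPM with HDAC1 and 267 CPM with empty vector under TGFB1, and 421 CPM against 210 CPM in vehicle. The rat Hdac1-like gene Hdac1l lay at 802 to 1367 CPM in the 6 HDAC1 libraries and at 0.530 to 15.1 CPM in the 6 empty vector libraries; how reads of the human sequence were shared between these genes was not tested. Fibroblast markers were high in every library (8 of 10 had a row; Lum and Thy1 had none). They summed to 11858 to 13963 CPM with HDAC1 and 13922 to 16893 CPM with empty vector under TGFB1. In vehicle they summed to 8968 to 10493 CPM with HDAC1 and 11200 to 12885 CPM with empty vector. With HDAC1, Pdgfrb and Col1a2 were called lower under TGFB1. Pdgfrb, Col1a2, Col1a1 and Pdgfra were called lower and Vim higher in vehicle. Of 8 endothelial markers Pecam1 and Emcn had no row and the other 6 summed to 16.2 to 23.9 CPM. For TGFB1, 5 were called lower and 1 higher with HDAC1, and Vwf was called lower with empty vector. Of the macrophage markers, 7 of 10, Ptprc and Adgre1 among them, had no row. The other 3 (Csf1r, Cd14 and Cd68) summed to 149 to 164 CPM with HDAC1 and 188 to 219 CPM with empty vector under TGFB1, and to 92.8 to 111 CPM and 151 to 154 CPM in vehicle. Cd14 was called lower with HDAC1 in both treatments, and Cd68 in vehicle. For TGFB1, Cd14 was called higher and Cd68 lower in both plasmid backgrounds. Of the fibroblast markers, TGFB1 raised Vim, Col3a1 and Col1a2 and lowered Pdgfra and S100a4 in both, and lowered Dcn with HDAC1. The part of these 3 marker lists in the results was not tested. Transcripts of adult heart stood out: the 14 heart markers summed to 132 to 150 CPM in the HDAC1 libraries and 392 to 496 CPM in the empty vector libraries with TGFB1, and to 211 to 412 CPM in the HDAC1 libraries in vehicle. Replicate 1 of empty vector in vehicle had 60.7 CPM where the other libraries of its group had 346 and 368 CPM. The 11 brain markers with a row followed the same pattern, at 25.4 to 28.6 CPM with HDAC1 and 82.1 to 82.9 CPM with empty vector under TGFB1. Calls of the 10 genes that changed with the heart marker sum as a covariate, or without that library, are given beside the result, and those of the wider pathway as counts. This sum was fully separate between the plasmids under TGFB1, and between TGFB1 and vehicle in both plasmid backgrounds. In those comparisons the covariate and the effect tested cannot be told apart well. A call lost with the covariate does not show where the change came from.

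The genomic sequence next to the transcription starts showed which of these genes hold an NF-kB motif close by. RefSeq windows of 250 bases before and 50 after the start (rat build GRCr8) matched 8 of the 10 genes; Relb and Birc3 had no entry. The kappaB consensus, searched on both strands, was found in 7 of these 8 windows and in 2515 of all 33469 windows of that length (7.51%). The stretches below are printed because the genes they belong to carry the results that follow or show the motif at its clearest. They run 5′ to 3′ along the gene's strand and lie before the start, and capitals mark the bases that match the consensus on either strand.
Tnfaip3, chr1:15544010-15544164, minus strand: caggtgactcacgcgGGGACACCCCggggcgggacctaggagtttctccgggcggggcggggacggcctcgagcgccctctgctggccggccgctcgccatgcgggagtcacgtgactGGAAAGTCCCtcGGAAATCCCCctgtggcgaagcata
Nfkbia, chr6:78597079-78597118, minus strand: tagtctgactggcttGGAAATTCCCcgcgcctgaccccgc
Nfkbie, chr9:22948012-22948051, minus strand: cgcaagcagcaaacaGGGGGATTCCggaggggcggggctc
Bcl3, chr1:88613569-88613608, minus strand: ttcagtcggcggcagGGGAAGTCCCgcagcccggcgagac
Nfkb2, chr1:255108339-255108373, plus strand: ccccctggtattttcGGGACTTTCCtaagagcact
Tnip1, chr10:39585021-39585062, minus strand: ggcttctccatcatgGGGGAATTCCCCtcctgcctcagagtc
Tnfaip3 had 3 separate matches, and the run of capitals in Tnip1 holds 3 overlapping ones. Rela had none in its window, and Nfkb1 had 1 after its start. A match is a run of letters only, and binding was not measured in these samples. Of the genes with one, edgeR called Tnfaip3, Nfkbia, Nfkbie and Bcl3 in some of the comparisons below. It called Nfkb1, Nfkb2 and Tnip1 in none, though DESeq2 called Nfkb2 and Tnip1 for TGFB1 with empty vector.

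The HDAC1 plasmid went with a higher transcript level of Tnfaip3 in both treatments, and with little movement of the subunits. Under TGFB1, 2 of the 10 genes were higher with HDAC1 than with empty vector, Tnfaip3 and Birc3, and none was lower. Both belong to the feedback regulators. In vehicle 1 of 10 was higher, again Tnfaip3, and none was lower. Of all 14601 genes, 6.53% were called for the HDAC1 effect under TGFB1 (2.17% higher and 4.36% lower) and 14.0% in vehicle (6.64% higher and 7.32% lower). So 2 of 10 under TGFB1 is above that share and 1 of 10 in vehicle is near it. The count under TGFB1 was 1 of 10 with the heart marker covariate, without replicate 1 and without replicate 3 of HDAC1 with TGFB1. Over all genes these fits gave 96, 237 and 291 calls, against 954. The 3 libraries of one plasmid all lay above or all below those of the other for 5 of the 10 genes under TGFB1 and for 4 in vehicle, where this held for 28.8% and 32.5% of all genes. Their median log2 fold change was 0.04 under TGFB1 and -0.00 in vehicle, where the median over all genes was -0.00 and -0.01.

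Tnfaip3 (ENSRNOG00000049517) encodes a ubiquitin-editing enzyme that shuts down signalling between cytokine receptors and the IkB kinase. It had 108, 83.1 and 104 CPM with HDAC1 under TGFB1, against 57.4, 65.1 and 50.1 CPM with empty vector under TGFB1. In vehicle it had 122, 103 and 129 CPM with HDAC1, against 82.1, 74.8 and 77.9 CPM with empty vector. Every HDAC1 library exceeded every empty vector library, whichever the treatment, though the lowest of the first (83.1 CPM) was next to the highest of the second (82.1 CPM). HDAC1 raised it 1.71-fold in the presence of TGFB1 (0.77 ± 0.11 SE on the log2 scale, edgeR adjusted p = 0.000751) and 1.51-fold in vehicle (0.59 ± 0.11 SE, adjusted p = 0.00123). It was called in each of the 19 alternative analyses, at log2 values of 0.67 to 0.89 under TGFB1 and 0.54 to 0.69 in vehicle. With the heart marker covariate, the values were 0.67 (adjusted p = 0.0349) under TGFB1 and 0.64 (adjusted p = 0.00104) in vehicle.

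Birc3 (ENSRNOG00000005731) encodes an inhibitor of apoptosis protein, a ubiquitin ligase that acts at the TNF receptor and restrains the non-canonical arm of the pathway. It had 30.8, 24.6 and 31.6 CPM with HDAC1 under TGFB1, against 24.0, 21.4 and 20.2 CPM with empty vector under TGFB1. In vehicle the HDAC1 libraries had 40.0, 40.8 and 39.9 CPM and the empty vector libraries 36.9, 39.1 and 34.6 CPM. The groups did not overlap in either treatment, though under TGFB1 the lowest HDAC1 library sat close to the highest empty vector one. The increase under TGFB1 was 1.32-fold (log2 fold change 0.40 ± 0.09 SE, edgeR adjusted p = 0.0150); in vehicle the estimate was 0.13 ± 0.09 SE and missed the threshold (adjusted p = 0.381). The call under TGFB1 was lost with the heart marker covariate (0.38, adjusted p = 0.222), and also without replicate 1 (0.35, adjusted p = 0.0937) or replicate 3 (0.33, adjusted p = 0.103) of HDAC1 with TGFB1 or replicate 3 of empty vector with TGFB1 (0.35, adjusted p = 0.0553).

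The third feedback gene, Tnip1, encodes a ubiquitin-binding partner of the Tnfaip3 protein. Its levels did not follow those of Tnfaip3: it ranged over 140.1 to 149 CPM with HDAC1 and 155 to 158 CPM with empty vector under TGFB1, and over 153 to 168 CPM with HDAC1 and 162 to 179 CPM with empty vector in vehicle. The libraries overlapped in vehicle but not under TGFB1, where HDAC1 was the lower group. Neither difference passed the test (log2 fold change -0.11 ± 0.06 SE in both treatments, edgeR adjusted p = 0.295 under TGFB1 and 0.230 in vehicle).

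None of the 3 inhibitor genes passed the test for HDAC1 in either treatment. Nfkbia (ENSRNOG00000007390) encodes IkB alpha, the inhibitor that is degraded and resynthesised within each round of signalling. It had 109, 94.3 and 104 CPM with HDAC1 and 85.0, 83.7 and 101 CPM with empty vector under TGFB1, and 153, 145 and 149 CPM with HDAC1 and 143, 137 and 130.4 CPM with empty vector in vehicle. The HDAC1 libraries lay above the empty vector ones in vehicle and overlapped with them under TGFB1. The estimates were 0.19 ± 0.07 SE (edgeR adjusted p = 0.134) under TGFB1 and 0.13 ± 0.07 SE (adjusted p = 0.260) in vehicle, with 95% intervals of 0.04 to 0.33 and -0.01 to 0.27. Without replicate 3 of empty vector with TGFB1, the highest library of its group, the value under TGFB1 was 0.28 and was called (adjusted p = 0.0197).

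Bcl3 (ENSRNOG00000043416) encodes an atypical IkB protein that binds subunit dimers in the nucleus and can activate or repress their targets. It had 9.19, 11.2 and 9.78 CPM with HDAC1 and 13.4, 12.2 and 11.4 CPM with empty vector in vehicle. Every HDAC1 library was below every empty vector library, and the estimate of -0.30 ± 0.11 SE just missed the threshold (edgeR adjusted p = 0.0766). It was called without replicate 2 of HDAC1 in vehicle (-0.38, adjusted p = 0.0389). Under TGFB1 it had 5.13, 5.49 and 5.30 CPM with HDAC1 and 6.46, 5.78 and 5.56 CPM with empty vector, again separate but close (-0.16 ± 0.13 SE, adjusted p = 0.482). Nfkbie, which encodes IkB epsilon, had estimates of 0.04 ± 0.08 SE under TGFB1 and 0.17 ± 0.08 SE in vehicle (adjusted p = 0.802 and 0.188).

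No subunit passed the test for HDAC1 in either treatment. Nfkb1 and Nfkb2 encode precursors that are processed to the DNA-binding subunits, Rela the main activating subunit, and Relb the partner of processed Nfkb2 in the non-canonical arm. The 8 estimates for these 4 genes ran over -0.16 to 0.13, and the 95% interval that reached farthest from 0 ended at -0.32 (Relb in vehicle). Over the 12 libraries Nfkb1 stayed within 90.4 to 109 CPM and Rela within 165 to 198 CPM. Nfkb2 under TGFB1 came nearest to a call, with 174, 177 and 168 CPM in HDAC1 libraries and 159, 158 and 159.9 CPM in empty vector libraries. These libraries did not overlap, and the difference of 9.14% had an edgeR adjusted p of 0.185.

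**Figure D1:**
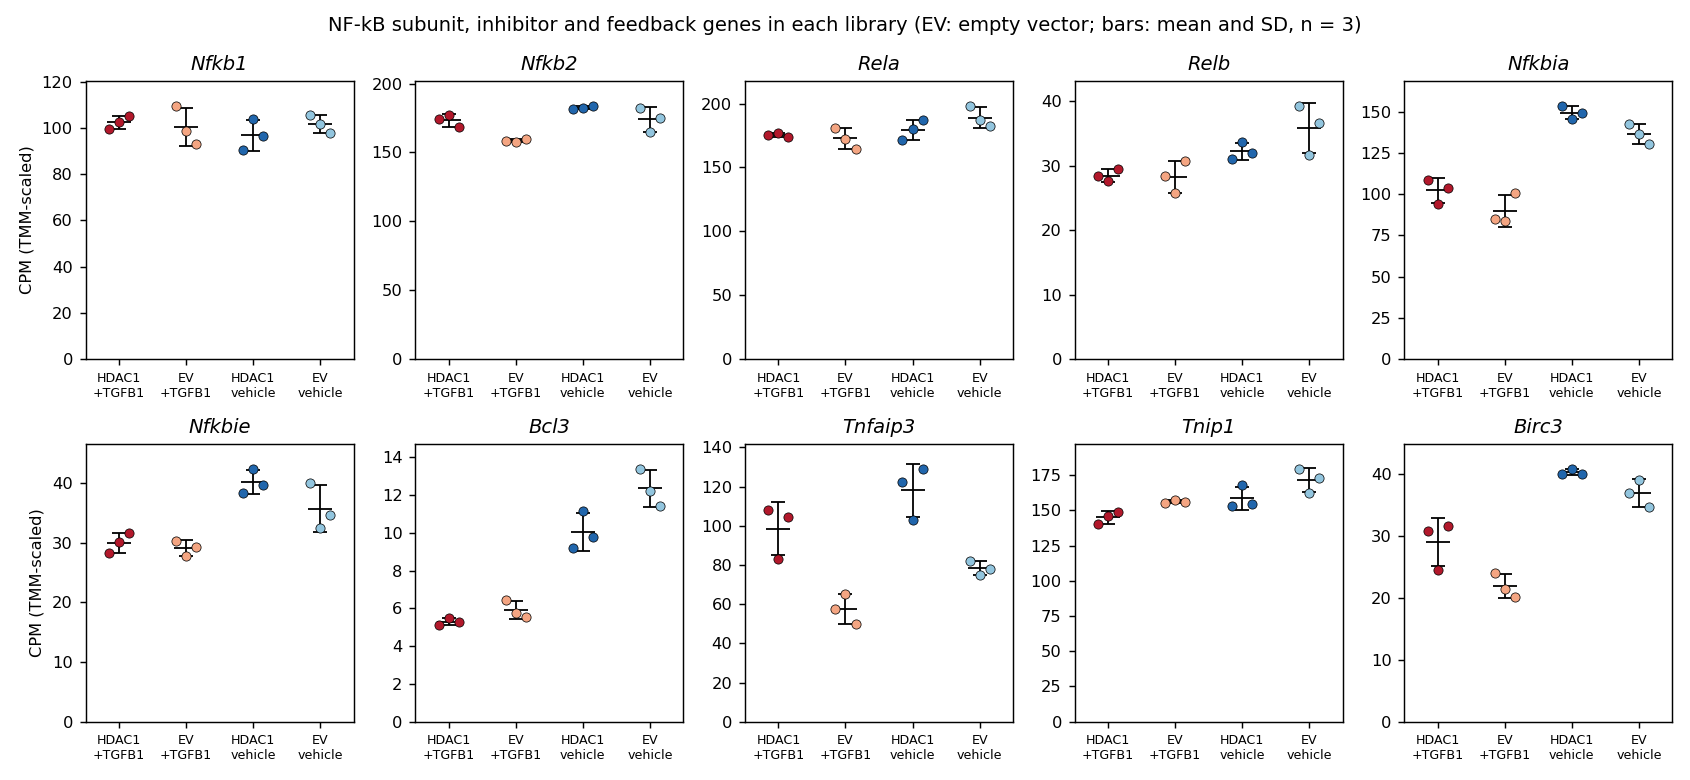
Level of each gene in every library, as TMM-scaled CPM on a linear axis that starts at 0; points are libraries, and bars the mean and SD of 3. Tnfaip3 stands at 83.1 to 129 CPM in the 6 HDAC1 libraries and at 50.1 to 82.1 CPM in the 6 empty vector libraries, whereas Bcl3 and Nfkbia separate by treatment.

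TGFB1 lowered the inhibitors and part of the feedback genes in both plasmid backgrounds. With HDAC1, 5 of the 10 genes fell with TGFB1 (Bcl3, Nfkbia, Birc3, Nfkbie and Tnfaip3) and none rose. With empty vector, 6 of 10 fell (the same 5 and Relb) and none rose. TGFB1 changed a large part of the transcriptome: 49.1% of all genes were called with HDAC1 (24.9% higher and 24.2% lower) and 50.9% with empty vector (25.9% higher and 25.0% lower). The median log2 fold change of the 10 genes was -0.22 with HDAC1 and -0.32 with empty vector, against -0.02 and 0.01 over all genes. The 5 genes lower in both backgrounds were 100% of those called with HDAC1 and 83.3% of those called with empty vector; over all genes the 2741 lower in both were 77.6% and 75.1%. These comparisons share no library. The 10 genes were chosen with earlier results of these data known, so these shares are a description. All TGFB1 libraries lay below all vehicle libraries for 7 of the 10 genes with HDAC1 and for 9 with empty vector, and the groups were separate in either direction for 60.7% and 56.0% of all genes.

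Bcl3 showed the steepest fall of the 10 genes. Against the vehicle values given above, it fell by 46.9% with HDAC1 (-0.91 ± 0.12 SE on the log2 scale, edgeR adjusted p = 2.11e-06) and fell by 51.9% with empty vector (-1.06 ± 0.12 SE, adjusted p = 2.1e-07). The 6 TGFB1 libraries all lay below the 6 vehicle libraries. Nfkbia behaved likewise at higher counts: it fell by 31.6% with HDAC1 (-0.55 ± 0.07 SE, adjusted p = 2.7e-06) and fell by 34.2% with empty vector (-0.60 ± 0.07 SE, adjusted p = 6.72e-07), again with no overlap between TGFB1 and vehicle libraries. Both genes kept their calls in all 19 alternatives in each background.

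Nfkbie had 28.3, 30.0 and 31.7 CPM with TGFB1 and 38.4, 42.4 and 39.7 CPM in vehicle among HDAC1 libraries. Among empty vector libraries it had 30.3, 27.8 and 29.3 CPM with TGFB1 and 40.0, 32.4 and 34.6 CPM in vehicle. TGFB1 libraries were below vehicle libraries in both backgrounds. It fell by 25.2% with HDAC1 (-0.42 ± 0.08 SE, edgeR adjusted p = 0.000243) and fell by 18.5% with empty vector (-0.30 ± 0.08 SE, adjusted p = 0.00532). The second of these calls was lost with the heart marker covariate (-0.21, adjusted p = 0.0782) and kept without replicate 1 of empty vector in vehicle (-0.22, adjusted p = 0.0421). The covariate itself differed between TGFB1 and vehicle without overlap, so the loss cannot be assigned to either.

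Among the feedback genes, Birc3 fell by 28.2% with HDAC1 (-0.48 ± 0.09 SE, edgeR adjusted p = 0.000168) and fell by 40.6% with empty vector (-0.75 ± 0.09 SE, adjusted p = 8.46e-07). Tnfaip3 fell by 26.5% with empty vector (-0.44 ± 0.11 SE, adjusted p = 0.00254). With HDAC1 it fell by 16.6% (-0.26 ± 0.11 SE, adjusted p = 0.0482), at the edge of the threshold, and its TGFB1 and vehicle libraries overlapped. That call was lost in 7 of 19 alternatives: with a fit of the 2 groups alone (-0.27, adjusted p = 0.0775), without replicate 2 of HDAC1 with TGFB1 (-0.18), without replicate 1 (-0.23) or 3 (-0.19) of HDAC1 in vehicle, and without any 1 of the empty vector libraries in vehicle (-0.26). Tnip1 had estimates of -0.13 ± 0.06 SE in both backgrounds (adjusted p = 0.0847 with HDAC1 and 0.0689 with empty vector).

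Of the subunits, Relb was the 1 that fell, and with empty vector: 28.3, 25.8 and 30.8 CPM with TGFB1, against 39.2, 31.6 and 36.7 CPM in vehicle (-0.34 ± 0.09 SE, edgeR adjusted p = 0.00212). With HDAC1 it had 28.4, 27.6 and 29.5 CPM with TGFB1 and 31.1, 33.7 and 32.0 CPM in vehicle (-0.18 ± 0.09 SE, adjusted p = 0.0896). TGFB1 libraries were below vehicle libraries in both backgrounds, by little. With empty vector, Nfkb2 and Rela each had -0.13 ± 0.06 SE (adjusted p = 0.0563 and 0.0725), and DESeq2 called both and Tnip1. Nfkb1 had 0.08 ± 0.07 SE with HDAC1 and -0.02 ± 0.07 SE with empty vector (adjusted p = 0.338 and 0.848), and its 4 groups overlapped throughout.

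**Figure D2:**
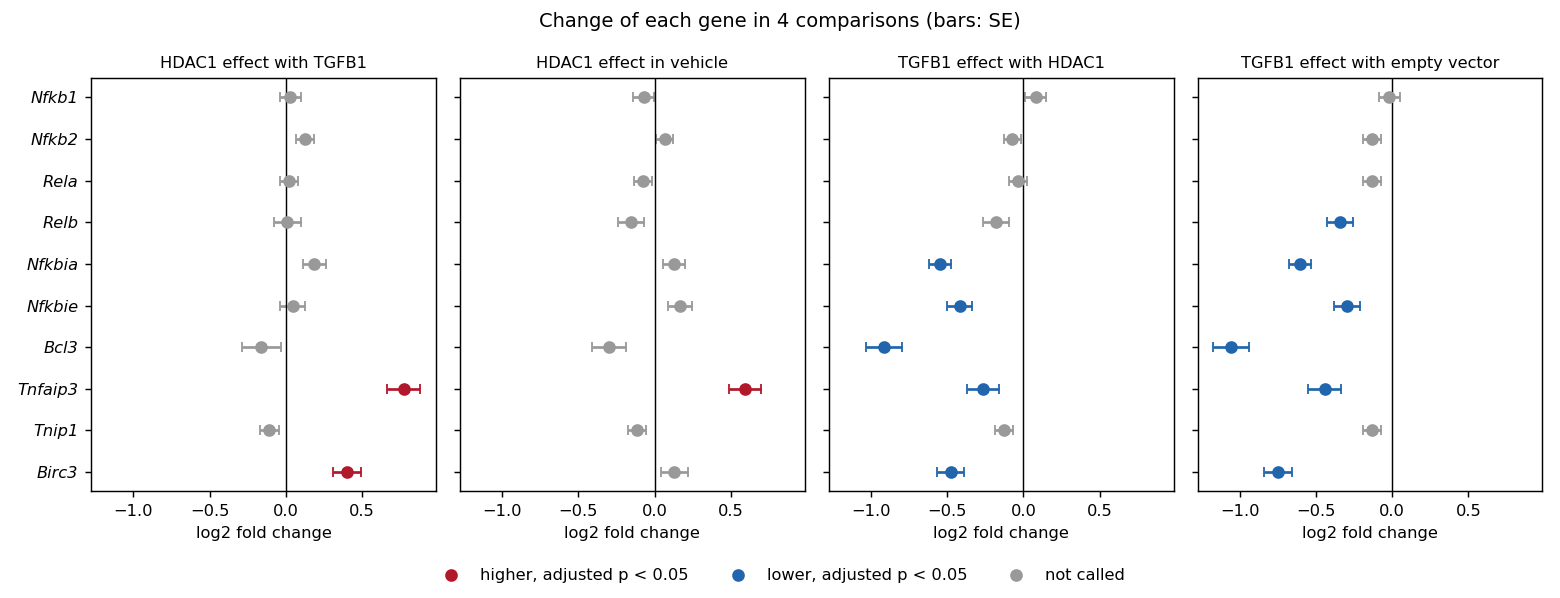
Log2 fold change of each gene in 4 comparisons (HDAC1 over empty vector, TGFB1 over vehicle), with SE bars; red and blue points passed an edgeR adjusted p of 0.05. Under HDAC1 only Tnfaip3 and, with TGFB1, Birc3 are coloured, whereas TGFB1 moved Bcl3 by -0.91 and -1.06.

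No gene of the set was called for a difference between treatments in its HDAC1 effect. The difference of the effects, under TGFB1 minus in vehicle, was called for 0 of the 10 by edgeR and by DESeq2, and 1 (Birc3) had an unadjusted p under 0.05; over all genes 0.479% were called (0.137% higher and 0.342% lower). Birc3 had a difference of 0.27 ± 0.13 SE on the log2 scale (edgeR adjusted p = 0.378, 95% interval 0.02 to 0.53) and Tnfaip3 0.18 ± 0.15 SE (adjusted p = 0.673, 95% interval -0.11 to 0.48). The call of Birc3 under TGFB1 and not in vehicle is thus no shown difference between the treatments. The same contrast compares the TGFB1 effects of the plasmid backgrounds, so the fall of Relb with empty vector is not shown to differ from its value with HDAC1 either (difference 0.17 ± 0.12 SE, adjusted p = 0.612).

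Across the 4 groups the genes differed in how far they ranged. The highest group mean was 1.06 times the lowest for Nfkb1, 1.10 times for Rela, 1.15 times for Nfkb2, 1.18 times for Tnip1 and 1.27 times for Relb. It was 1.38 times for Nfkbie, 1.66 times for Nfkbia, 1.84 times for Birc3, 2.05 times for Tnfaip3 and 2.33 times for Bcl3. Tnfaip3 was the gene whose order followed the plasmid: HDAC1 in vehicle averaged 118 ± 13.4 CPM (SD, n = 3) and HDAC1 with TGFB1 98.6 ± 13.5 CPM, which overlapped, followed by empty vector in vehicle at 78.3 ± 3.65 CPM and empty vector with TGFB1 at 57.5 ± 7.50 CPM, each below every library of the group before. Birc3, Nfkbia, Nfkbie and Nfkb2 shared another order, with HDAC1 in vehicle first, then empty vector in vehicle, HDAC1 with TGFB1 and empty vector with TGFB1. All neighbours in that order were separate for Birc3, and all but the last pair for Nfkbia. Only the middle pair was separate for Nfkbie, and only the last pair for Nfkb2. Bcl3 ran from empty vector in vehicle (12.4 ± 0.974 CPM) through HDAC1 in vehicle (10.05 ± 1.01 CPM) and empty vector with TGFB1 (5.93 ± 0.473 CPM) to HDAC1 with TGFB1 (5.31 ± 0.178 CPM), with no overlap between neighbours.

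Over the 12 libraries, the profile of Nfkbia was closest to that of Birc3 among the set (Pearson r of log2 CPM 0.92), and Nfkbia and Nfkbie had r = 0.87. Tnfaip3 and Tnip1, whose products act together, had r = -0.22. Among 10161 genes with a symbol and a mean log2 CPM of at least 2, the most alike were Gypc, Ppp1r15a and Arrdc4 for Tnfaip3 (r = 0.97, 0.97 and 0.96), Lrrc8d, Lipe and Plk2 for Birc3 (0.98, 0.97 and 0.96), Nln, Slc2a5 and Cdc14a for Nfkbia (0.98, 0.98 and 0.97) and Abhd1, Nod1 and Vwa5a for Bcl3 (1.00, 0.99 and 0.99). For Nfkb1, which hardly varied, the highest value was 0.83 (Lrp6). These coefficients describe 12 libraries that fall into 4 groups, and they share library and scaling, so no p is attached.

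The rest of the pathway was read from 5 lists: other subunits and inhibitors, receptors and adaptors, kinases and ubiquitin ligases, other brakes, and effector genes known as NF-kB targets. Over the 60 tested genes of the first 4 lists, HDAC1 gave 2 calls under TGFB1 (3.33%, against 6.53% of all genes) and 6 in vehicle, all lower (10% called, against 14.0% of all genes). Of 23 receptors and adaptors, 1 was higher and 1 lower with HDAC1 under TGFB1, and in vehicle 0 were higher and 5 lower. The pair under TGFB1 was the adaptor Traf1, at 10.7 CPM with HDAC1 and 7.56 CPM with empty vector (log2 fold change 0.49, edgeR adjusted p = 0.0219), and the adaptor Traf5 (-0.35, adjusted p = 0.0310). The strongest in vehicle were the receptor-associated kinase Irak4, at 16.6 CPM with HDAC1 and 22.3 CPM with empty vector (-0.43, edgeR adjusted p = 0.00276), and the TNF receptor Tnfrsf1a, at 102 CPM and 128 CPM (-0.32, adjusted p = 0.00139). The count in vehicle was 2 without replicate 1 of either group and 3 with the heart marker covariate, without replicate 2 of empty vector or without replicate 3 of HDAC1; Irak4 and Tnfrsf1a remained in each case. Under TGFB1, Traf1 and Traf5 both lost their calls with the covariate or without replicate 1 of either group. Traf1 also lost its call without replicate 2 of empty vector (adjusted p = 0.0504), and Traf5 without replicate 3 of either group and in a fit of the 2 groups alone (adjusted p = 0.0501).

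Of 16 kinases and ubiquitin ligases, none was called for HDAC1 under TGFB1 by edgeR or DESeq2 (4 at an unadjusted p under 0.05). In vehicle the IkB kinase relative Ikbke was lower, at 19.99 CPM with HDAC1 and 29.5 CPM with empty vector (-0.56 ± 0.10 SE, edgeR adjusted p = 0.000415), and DESeq2 also called Cul1 higher; under TGFB1, Tab3 was called without replicate 2 of empty vector. Of 15 other brakes and of 6 other subunits and inhibitors, edgeR and DESeq2 called none for HDAC1 in either treatment. At an unadjusted p under 0.05 there were 2 brakes under TGFB1 and 2 in vehicle, and 0 subunits or inhibitors under TGFB1 and 1 (Rel) in vehicle. In vehicle Nlrc5 was called lower without replicate 2 of HDAC1 in vehicle or replicate 3 of empty vector with TGFB1, and Rel higher under the stricter filter. Tnip3, a relative of Tnip1, had separate libraries without a call: 186 to 204 CPM with HDAC1 and 165 to 183 CPM with empty vector under TGFB1 (0.13 ± 0.06 SE, edgeR adjusted p = 0.192), and 223 to 232 CPM with HDAC1 and 213 to 217 CPM with empty vector in vehicle (0.08 ± 0.06 SE, adjusted p = 0.405).

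**Figure D3:**
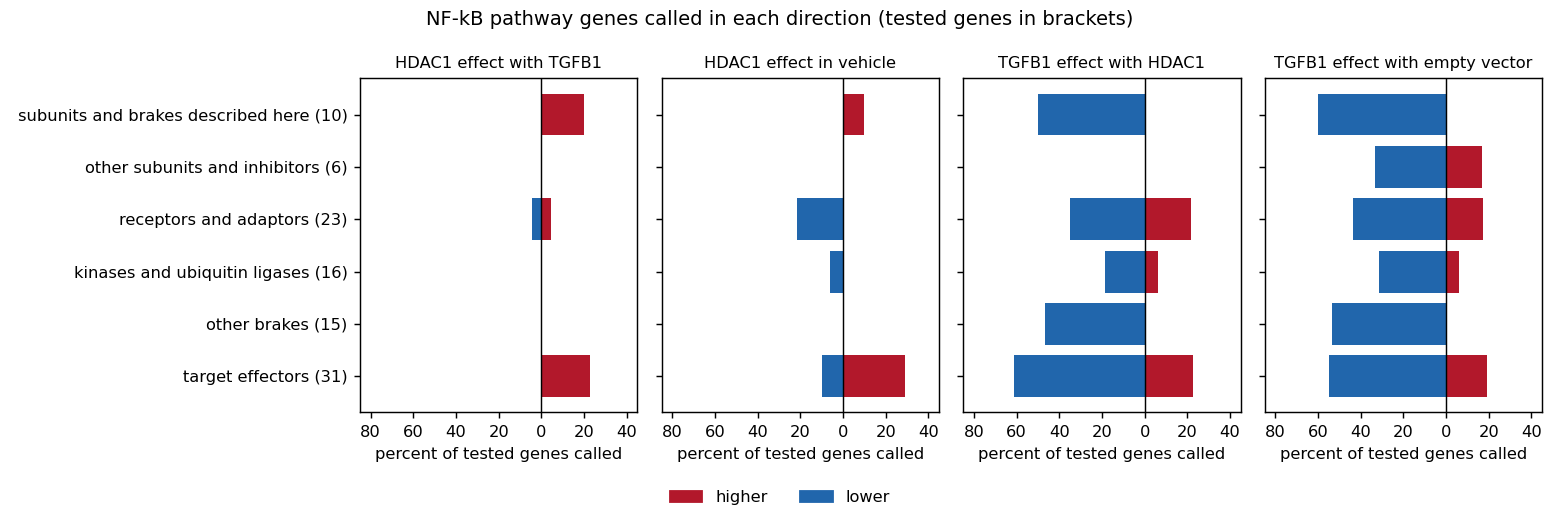
Percent of tested genes of each NF-kB list called lower (blue, left) and higher (red, right) in 4 comparisons; numbers in brackets are genes tested. For HDAC1, effectors lead the higher direction (7 of 31 with TGFB1, 9 of 31 in vehicle) and receptors and adaptors the lower one in vehicle (5 of 23), and other brakes are called in the TGFB1 comparisons only in the lower direction.

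Effector genes, the longest list, gave the most calls for HDAC1. Of 31 tested, 7 were higher and none lower with HDAC1 under TGFB1, and 9 were higher and 3 lower in vehicle. Over all genes 2.17% were higher and 4.36% lower under TGFB1, and 6.64% higher and 7.32% lower in vehicle. The effectors' median log2 fold change was 0.08 and 0.14, against -0.00 and -0.01 over all genes. Shared by both treatments were 5 genes: the growth factor Csf2, the chemokines Cxcl2 and Cx3cl1, the matrix protease Mmp3 and the cytokine Tnf. They were 71.4% of those higher under TGFB1 and 55.6% of those higher in vehicle; over all genes the shares were 50.5% and 16.5%. These comparisons share no library either. The list was chosen with earlier results of these data known, so these shares describe it and are no independent test.

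Csf2 had 31.8, 21.4 and 27.0 CPM with HDAC1 and 11.5, 15.6 and 12.5 CPM with empty vector under TGFB1, and 20.5, 16.7 and 20.8 CPM with HDAC1 and 9.50, 8.91 and 8.37 CPM with empty vector in vehicle. Its groups were separate in both treatments (log2 fold change 1.01 ± 0.14 SE with edgeR adjusted p = 0.000365 under TGFB1, and 1.12 ± 0.14 SE with adjusted p = 4.29e-05 in vehicle). Mmp3 averaged 174 ± 41.0 CPM with HDAC1 and 61.5 ± 7.97 CPM with empty vector (SD, n = 3) under TGFB1, and 250.1 ± 35.2 CPM with HDAC1 and 153 ± 10.03 CPM with empty vector in vehicle. The increase was 2.82-fold under TGFB1 (1.50 ± 0.18 SE, adjusted p = 0.00138) and 1.64-fold in vehicle (0.71 ± 0.17 SE, adjusted p = 0.0178). Cxcl2 (1.32 ± 0.23 SE under TGFB1, 1.41 ± 0.21 SE in vehicle) and Tnf (0.80 ± 0.14 SE and 0.72 ± 0.13 SE) were higher at low counts, Tnf at 6.75 CPM with HDAC1 and 3.88 CPM with empty vector under TGFB1.

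Other well known targets moved either way or did not move. With HDAC1, Nos2, Cxcl3 and Il6 were also called higher in vehicle, and Ptgs2 and Cxcl1 under TGFB1. In vehicle, HDAC1 lowered Sod2, the mitochondrial superoxide dismutase, to 205 CPM, against 275 CPM with empty vector (-0.43 ± 0.07 SE, edgeR adjusted p = 0.000415), and the adhesion molecule Icam1 to 333 CPM, against 402 CPM (-0.27 ± 0.05 SE, adjusted p = 0.00202). Another adhesion molecule, Vcam1, was higher, at 54.3 CPM with HDAC1 and 41.2 CPM with empty vector (0.40 ± 0.08 SE, adjusted p = 0.00151). The monocyte chemokine Ccl2 had estimates of -0.02 under TGFB1 and -0.03 in vehicle. With the heart marker covariate 2 effectors (Csf2 and Mmp3) were called under TGFB1, and 11 higher and 3 lower in vehicle. DESeq2 called 10 higher and 1 lower under TGFB1. Without replicate 1 of empty vector in vehicle, Cx3cl1 and Mmp3 were not called in vehicle, and Ninj1 was called lower under TGFB1. Under TGFB1, 4 were called without replicate 1 of empty vector or without replicate 3 of HDAC1 (Csf2, Cxcl2, Mmp3 and Tnf in each case). The difference between the HDAC1 effects was called for none of the 31 by edgeR (8 at an unadjusted p under 0.05) and for 1 by DESeq2.

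**Figure D4:**
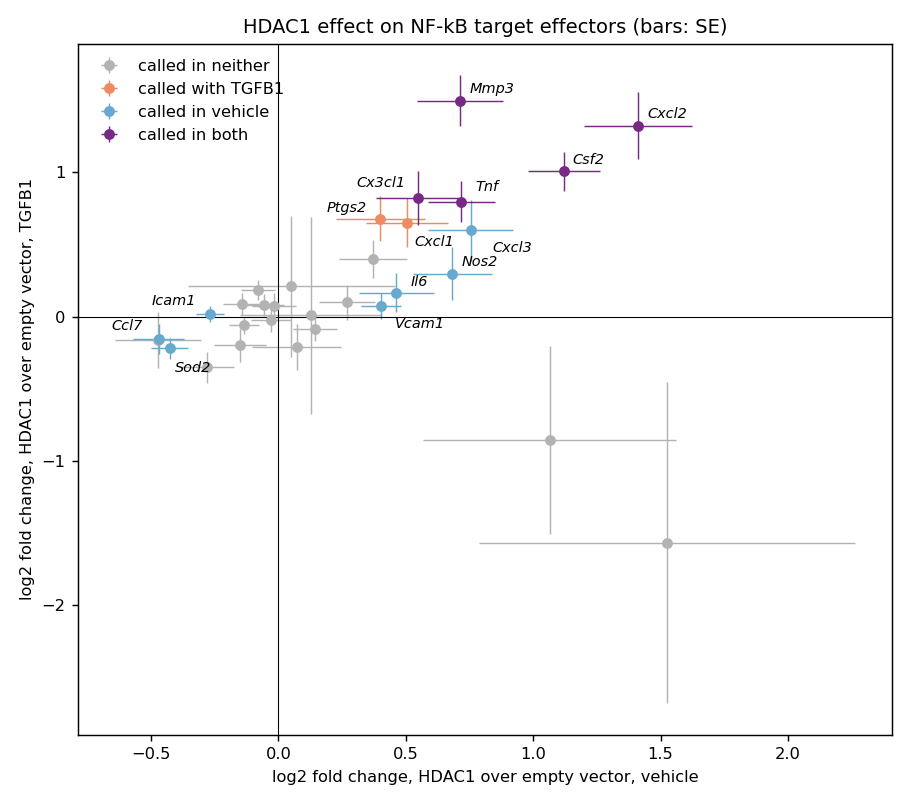
HDAC1 effect on 31 NF-kB effector genes, as log2 fold change over empty vector in vehicle (horizontal) and with TGFB1 (vertical), with SE bars. The 5 genes called in both treatments lie at the upper right, from Cx3cl1 (0.55 and 0.82) to Mmp3 (0.71 and 1.50); the grey points at the lower right with wide bars are C3 and Il1a, which were called in neither.

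For TGFB1 the counts of the wider pathway stand against a transcriptome in which 24.2% of genes were lower with HDAC1 and 25.0% with empty vector, and about as many higher. Over the first 4 lists together, 40% of genes were called with HDAC1 and 51.7% with empty vector, against 49.1% and 50.9% of all genes. Of 15 other brakes 0 rose and 7 fell with HDAC1, and 0 rose and 8 fell with empty vector. Irak3, a kinase relative that blocks receptor signalling, was at 21.6 CPM with TGFB1 and 55.9 CPM in vehicle among HDAC1 libraries (-1.37 ± 0.07 SE, edgeR adjusted p = 1.17e-12), and at 21.9 CPM and 57.1 CPM among empty vector libraries (-1.38 ± 0.07 SE, adjusted p = 1.27e-12). Cyld, a deubiquitinase, fell by 0.70 on the log2 scale in both backgrounds, and Nlrc5 fell by 0.83 with HDAC1 and fell by 0.91 with empty vector. Effectors split: with HDAC1 7 rose and 19 fell of 31, and with empty vector 6 rose and 17 fell, with medians of -0.61 and -0.64. Vcam1 was at 15.98 CPM with TGFB1 and 54.3 CPM in vehicle among HDAC1 libraries, and at 15.2 CPM and 41.2 CPM among empty vector libraries. On the log2 scale Icam1 changed by -0.92 with HDAC1 and -1.21 with empty vector, while Csf2 rose by 0.46 and 0.57.

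Upstream of the subunits TGFB1 moved genes both ways. Over all genes 24.9% rose and 24.2% fell with HDAC1, and 25.9% rose and 25.0% fell with empty vector. Of 23 receptors and adaptors, 5 rose and 8 fell with HDAC1, and 4 rose and 10 fell with empty vector. The interleukin receptor Il1r1 (0.88 with HDAC1, 0.52 with empty vector) and the TWEAK receptor Tnfrsf12a (0.63 and 0.77) rose, and Irak2 (-0.61 and -0.76) and Traf1 (-0.61 and -1.02) fell. The difference between the backgrounds was called for none of the 23 by edgeR. For Il1r1 it was called by DESeq2 and with no filter on low counts. It was also called without replicate 2 of empty vector with TGFB1 or replicate 3 of empty vector in vehicle. Of 16 kinases and ligases, 1 rose and 3 fell with HDAC1, and 1 rose and 5 fell with empty vector. The IkB kinase subunits were split: Chuk rose (0.43 and 0.41), whereas Ikbkb (-0.34 and -0.51) fell, as did their relative Ikbke (-0.91 and -1.34). Of 6 other subunits and inhibitors none was called with HDAC1 by edgeR or DESeq2 (1, Nfkbiz, at an unadjusted p under 0.05). Nfkbiz was called lower there in a fit of the 2 groups alone, under the stricter filter, without any 1 of the empty vector libraries with TGFB1 and without replicate 1 of HDAC1 with TGFB1. With empty vector the subunit Rel rose (0.29, edgeR adjusted p = 0.0154), and Nkiras1 (-0.44) and Nfkbiz (-0.23, adjusted p = 0.0438) fell. Without replicate 2 of empty vector with TGFB1, Rel (adjusted p = 0.0521) and Nfkbiz (adjusted p = 0.211) lost their calls, and Rel also with no filter on low counts (adjusted p = 0.0580). The call of Nfkbiz was lost in 5 further alternatives (adjusted p = 0.0503 to 0.196): with the heart marker covariate, in the fit of the 2 groups alone, and without replicate 1 or 3 of empty vector in vehicle or replicate 3 of HDAC1 in vehicle. With the heart marker covariate, 6 brakes, 7 receptors and adaptors and 18 effectors fell with HDAC1 (4 receptors and adaptors and 6 effectors rose), and 7, 8 and 16 fell with empty vector. Without replicate 1 of empty vector in vehicle, 8 receptors and adaptors and 16 effectors fell with empty vector.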

How the data were processed

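Poly(A) RNA of NRK-49F cells was sequenced in 12 libraries. The authors deposited whole-number counts per gene for 43360 rat Ensembl genes, and a signal table of 14275 genes that paired identifiers with symbols. That deposited signal equalled the counts divided by 1 constant per library, and it was used for symbols only. The submitters' processing notes name Trim Galore 0.6.7, Subread 2.0.1 with featureCounts, DESeq2 1.44 and the build mm10; the aligner, the rat build, strand setting and handling of multiply mapped reads are not given in the sources used here. Groups were taken from the titles, because the treatment field counts upward in the name of the cytokine (TGFB1, then higher numbers).

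Counts were tested with edgeR 4.0.16 in R 4.3.3: filterByExpr, TMM scaling, 1 mean per group over 12 libraries (8 residual degrees of freedom), the robust quasi-likelihood test, and Benjamini-Hochberg adjustment over 14601 genes, on 5 contrasts with a threshold of 0.05. Log2 fold changes are from this fit, with SEs taken from its F statistics, and levels are means and SDs of TMM-scaled CPM. The 95% intervals use a normal multiplier of the SE, so they are somewhat narrower than the test itself would give. The script was tested on simulated data. No pair of libraries was a copy. Alternatives were DESeq2's size factors, the DESeq2 1.42.0 test, other filters, a replicate block, the heart marker sum as covariate, a fit of only the 2 groups compared, and leaving out each library. The named genes were all 10 of the set, up to 4 called genes per list and comparison with the smallest adjusted p, and the 3 genes most like each of the set; single genes named beyond this (Ccl2, Cx3cl1, Cul1, Tab3, C3, Il1a, Ninj1 and Tnip3 among them) were chosen after their values were seen. The 10 genes and the lists were chosen with earlier results of these data known. Not tested for low counts or missing rows were Cd40, Ticam1, Tnfrsf11a, Ube2n, Sigirr, Bcl2a1, Ccl5, Csf3, Il1b and Plau. Promoter windows came from RefSeq (GRCr8).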

Additional observations from a re-analysis of the deposited data

How the results depend on the processing

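No result changed direction while called. Calls of Tnfaip3 for HDAC1, and of Bcl3, Nfkbia, Birc3 for TGFB1, held in every alternative. Over all genes, the HDAC1 effect under TGFB1 gave 96 calls with the heart marker covariate against 954, and 1 of the 10 genes against 2. In that comparison the covariate differs between the plasmids without overlap, so the drop cannot be assigned to either. The difference between the HDAC1 effects gave 270 calls with the DESeq2 test, 479 with no filter and 0 with the covariate, against 70. Leaving out single libraries gave 1144 to 2679 calls for HDAC1 in vehicle (1 to 2 of the 10 genes), 237 to 1251 for HDAC1 under TGFB1 (1 to 2), 6210 to 7657 for TGFB1 with HDAC1 (4 to 7), 6633 to 7511 for TGFB1 with empty vector (6 to 9), and 3 to 257 for the difference (0). The lowest of these for HDAC1 came without replicate 1 of HDAC1 in vehicle and without replicate 1 of HDAC1 with TGFB1. The cause was not tested. With empty vector, DESeq2 called 9 of the 10 genes for TGFB1 against 6.

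Whether replicate numbers pair libraries is not stated. Deviations from the group means correlated at -0.09 to 0.12 between same-numbered libraries, and at -0.12 to 0.09 between the others. Correlations this weak show no clear pairing and cannot exclude it. A replicate block gave 1790, 784, 6915, 7197 and 98 calls in the same order, and left the counts for the 10 genes at 1, 2, 5, 6 and 0; under it Traf5 was not called for HDAC1 with TGFB1 (adjusted p = 0.0502) and Nfkbiz was called lower for TGFB1 with HDAC1. Depth limits Bcl3 most, with 93 to 348 counts a library.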

Other observations

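Among the HDAC1 libraries, replicate 2 had the lowest Hdac1l level in both treatments, at 802 CPM against 1211 and 1257 CPM with TGFB1, and at 852 CPM against 1297 and 1367 CPM in vehicle. Tnfaip3 was also lowest in replicate 2 of both treatments (83.1 CPM with TGFB1 and 103 CPM in vehicle), as were Csf2 (21.4 and 16.7 CPM), Cxcl2 (3.46 and 5.39 CPM), Mmp3 (131 and 213 CPM) and Cx3cl1 (2.61 and 5.07 CPM); 15.4% of all tested genes were lowest in replicate 2 of both. Tnf was lowest there in vehicle (8.73 CPM) but in replicate 3 with TGFB1 (6.01 CPM). Nfkbia, which was not called for HDAC1 in either treatment, was lowest there in both as well (94.3 and 145 CPM). Birc3 was lowest there with TGFB1 (24.6 CPM) but not in vehicle (40.8 CPM), and Bcl3 was highest there in both (5.49 and 11.2 CPM). Relb was lowest there with TGFB1 (27.6 CPM) but highest there in vehicle (33.7 CPM). Nfkb1, Nfkb2, Rela, Nfkbie and Tnip1 were lowest there in neither treatment. Of the subunits and brakes, only Tnfaip3 and Nfkbia were thus lowest there in both, and the set as a whole did not follow Hdac1l. The effectors named here are those called higher with HDAC1 in both treatments. With 3 libraries a group this is a description, noticed in these data and with no test attached.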
